A study of Mus musculus with 2 samples.

Results

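The annexins examined were the 8 family members Anxa1, Anxa2, Anxa3, Anxa4, Anxa5, Anxa6, Anxa7 and Anxa11, taken by gene symbol from the 32285 genes of the table. All 8 had unique molecular identifier (UMI) counts, from 101 UMIs for Anxa6 to 11836 UMIs for Anxa1. The cells came from the femurs and vertebrae of BALB/c mice, 4 weeks after ovariectomy (OVX) or a sham operation. Bone was digested with trypsin and then overnight with collagenase, and CD11b+ cells that were also F4/80+ or CD68+ were sorted as osteal macrophages (Omacs). Each condition was 1 pool of animals, marked with a hashtag antibody, and both pools were read in 1 library of 3′ single-cell RNA-Seq. The pools are the replicates, so there is no replicate check of OVX against sham, and every interval below is a 95% interval that covers counting error only.

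The library held 2349 barcodes and 17681092 gene UMIs, with a median of 4387 UMIs per cell. The hashtags placed 1059 cells in OVX and 981 in sham, 78 above the limit for both and 231 for neither. Clustering without any annexin gene gave 6 clusters, which are called here by their leading genes. In 4 of them, named Camp-high (305 cells), stefin-high (583 cells), Retnlg-high (600 cells) and Ccl4-high (509 cells), the 16 neutrophil markers summed to between 165117 and 380635 UMIs per 1000000 UMIs (CPM), against 98956 in the Arg1-high cluster and 4143 in the stromal-like cluster. S100a8 lay between 78442 and 124319 CPM in them. The macrophage markers summed to between 55.7 and 155 CPM in these 4 clusters, which are called neutrophil-like. A stromal-like cluster of 210 cells was led by genes such as Prrx1 and Prg4. It held 19996.5 UMIs per cell at the median. In it, 112 cells (53.3%) were above the limit for neither hashtag and so were left out of OVX against sham. The sixth cluster, of 142 cells, was led by Pf4, Ppbp, MHC class II genes and Arg1, and it is left unnamed as the Arg1-high cluster. In another clustering that kept annexins among the variable genes, 62 of its cells formed the Arg1-high cluster. The other 80 cells had 415 CPM of the proliferation gene Mki67 and 47655 CPM of S100a8. Arg1 was at 24.8 CPM in these 80 cells against 6614 CPM in the 62, and the neutrophil markers Ltf and Camp were at 1503 and 1277 CPM in the 80. The name Arg1-high thus describes the 62 cells, and levels of the whole cluster mix both sets. The annexins whose intervals did not overlap between these 2 sets of cells are given for each set. The share of all genes that differed in this way was not computed, so the split is not read as a trait of annexins. The labelled cell type was checked against its 12 macrophage markers. In the Arg1-high cluster 10 were detected and they summed to 3468 CPM, with Arg1 at 2632, Msr1 at 572, Cd68 at 134, Csf1r at 65.3 and the F4/80 gene Adgre1 at 46.2 CPM. Arg1 and Msr1, which made most of that sum, were also the genes used to pick this cluster, so their levels are no independent check. C1qa, C1qb and Vsig4 had 1 UMI each there, and C1qc and Cd163 had 0.

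Annexins are cytosolic proteins that bind acidic phospholipids, such as phosphatidylserine, when calcium rises. They share a conserved core and differ in the short N-terminal tail, which carries the sites for partners such as S100 proteins. In leukocytes they are known for roles in granule fusion, membrane repair, the surface activation of plasminogen, and the damping of inflammation by secreted annexin A1.

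Promoters of some members that differ in their stromal-like to neutrophil-like ratio are shown first. Anxa4, at 3.10 (2.50 to 3.87), and Anxa7, at 1.79 (1.64 to 1.96), also differed in this ratio, and their promoters are not printed. The RefSeq table for GRCm38.p6 held promoters for 6 of the 8 members. It held no entry for Anxa3 or Anxa6. The 30 bases from 40 to 11 before the start are printed 5′ to 3′, with capitals marking TATAAA (the core of a TATA box) or GGGCGG (a GC box) on either strand. Stromal-like over neutrophil-like cells, the ratio was 0.153 for Anxa1, 0.524 for Anxa2, 0.599 for Anxa11 and 8.43 for Anxa5, and Anxa8, a relative outside the 8, had 98.7% of its UMIs in stromal-like cells.
Anxa1: tcatatccTATAAAatcaggagtccaaccc
Anxa2: tcgcgctgggaggatgGGGCGGgTATAAAa
Anxa11: gaggctCCGCCCatctcgtgcggctccgcc
Anxa5: cgcaggagcatagaggctaggacgtggcag
Anxa8: gggtggggctggacctgtgtacacaaccac
The windows are chr19:20390682-20390711 (minus strand), chr9:69453643-69453672 (plus), chr14:25842115-25842144 (plus), chr3:36475898-36475927 (minus) and chr14:34085939-34085968 (plus). The windows of Anxa1 and Anxa2 are counted from the RefSeq start and lie inside the gene spans given below, which have other starts. TATAAA stood on the printed strand of this window in Anxa1 and Anxa2, and in 2.08% of the 32851 promoters of the table. GGGCGG on either strand of the 250 bases before the start was held by 32.7% of those promoters, and by Anxa2, Anxa7 and Anxa11 among the 6 matched members. A match is a description of the letters and not of a bound site.

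**Figure D1:**
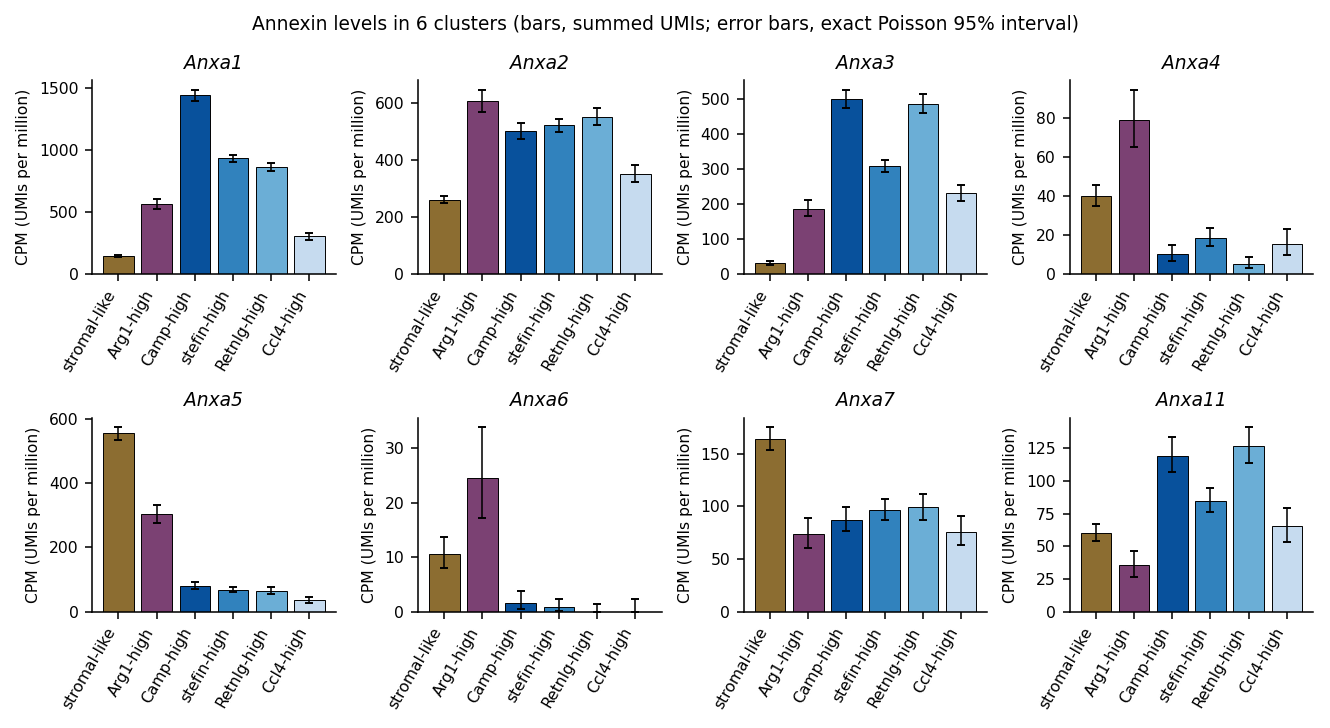
Level of each of the 8 annexins (bars, CPM from summed UMIs; error bars, exact Poisson 95% intervals) in the stromal-like, Arg1-high and 4 neutrophil-like clusters, each panel with its own axis from 0. Anxa1 was at 1445 CPM in Camp-high and 145 CPM in stromal-like cells, whereas Anxa5 was at 81.1 CPM in Camp-high and 555 CPM in stromal-like cells.

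The family did not move as a block between stromal-like cells and the rest. At a fold of 2 or more, Anxa5 and Anxa6 were higher in stromal-like cells, Anxa1 and Anxa3 were lower, and the other 4 members lay between. Of 8558 genes at 10 CPM or more in either group, 49.6% were that much higher and 19.8% that much lower, so 2 of 8 members in each direction was below the background for higher and near it for lower. Anxa6 met this filter through stromal-like cells alone (10.6 against 3.52 CPM in all other cells), so it could be counted only as higher. The median log2 ratio of the members was 0.13, against 0.98 over all genes tested. Genes of the other cell type gave the scale of free RNA carried over between cells. Dcn in neutrophil-like cells was at 0.560% of its stromal-like level, and S100a8, S100a9, Ptprc and Itgam in stromal-like cells were at 0.647% to 1.29% of their neutrophil-like level.

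Anxa1 and Anxa3 were the members highest in neutrophil-like cells relative to stromal-like cells. Anxa1 (chr19:20373428-20390944, minus strand, GRCm38), the glucocorticoid-induced protein that acts on formyl peptide receptors, was at 1445 CPM (1400 to 1491) in Camp-high cells. It was at 934 CPM (904 to 966) in stefin-high, 865 CPM (830 to 902) in Retnlg-high and 305 CPM (279 to 334) in Ccl4-high cells. In stromal-like cells it was at 145 CPM (135 to 156), where the largest carry-over share above would give 12.2 CPM. Every step down in this order, with the Arg1-high cluster at 567 CPM (529 to 607) between Retnlg-high and Ccl4-high, had an interval that excluded 1, the smallest being stefin-high over Retnlg-high at 1.08 (1.02 to 1.14). Of the Arg1-high cluster, the 62 cells had 436 CPM (384 to 494) and the other 80 cells had 653 CPM (601 to 708). Camp-high cells therefore stood highest and stromal-like cells lowest.

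The share of cells with an Anxa1 UMI followed the same order within the neutrophil-like clusters. After thinning each cell to 1000 UMIs, 68.5% of 298 Camp-high cells, 51.6% of 529 stefin-high cells, 40.2% of 575 Retnlg-high cells and 16.8% of 459 Ccl4-high cells kept an Anxa1 UMI. The unthinned shares were 94.4%, 78.0%, 71.5% and 37.5%, at median depths of 7754, 5144, 3864 and 2605 UMIs. No cluster lacked Anxa1, so its own free RNA could not be measured. Dcn, a stromal gene at 16513 CPM in stromal-like cells, had a UMI in 9.67% of the 1861 thinned neutrophil-like cells. That share gauges carry-over from stromal-like cells alone and sets no floor for Anxa1 carried over between neutrophil-like cells.

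Anxa3 (chr5:96793339-96845966, plus strand), known from the cytosol and granules of neutrophils, was at 500 CPM (473 to 527) in Camp-high and 486 CPM (460 to 513) in Retnlg-high cells. These neighbors could not be told apart, with a ratio of 1.03 (0.951 to 1.11). It was at 309 CPM (292 to 327) in stefin-high and 231 CPM (208 to 256) in Ccl4-high cells. Stromal-like cells had 31.4 CPM (26.9 to 36.5), the lowest of the 6 clusters. In the Arg1-high cluster Anxa3 was at 187 CPM, but the 62 cells had 94.5 CPM (71.2 to 123) and the other 80 cells had 248 CPM (216 to 282). S100a8 in the 62 cells was at 10.1% of its neutrophil-like level, and that share of the neutrophil-like Anxa3 level would be 39.0 CPM.

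The receptors of annexin A1 were lowest, among neutrophil-like clusters, where their ligand was highest. Fpr1, the formyl peptide receptor that detects bacterial peptides, was at 73.3 CPM in Camp-high cells, 266 CPM in stefin-high, 268 CPM in Retnlg-high and 355 CPM in Ccl4-high cells. Fpr2, the receptor through which annexin A1 is best known to act, was at 513 CPM in Camp-high cells, 844 CPM in stefin-high, 709 CPM in Retnlg-high and 766 CPM in Ccl4-high cells. Both were near 0 in stromal-like cells, at 2.56 CPM and 5.30 CPM. Camp-high cells thus had the most Anxa1 and the least of both receptors among the neutrophil-like clusters. Ccl4-high cells had the least Anxa1 and the most Fpr1, whereas Fpr2 was highest in stefin-high cells.

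Between Camp-high and Ccl4-high cells, 7 members reached 10 CPM in either cluster. Anxa1, Anxa3 and Anxa5 were 2-fold or more higher in Camp-high cells and none was that much lower. The background was 20.4% higher and 18.1% lower over 6185 genes. This pair of clusters was chosen after seeing the data. Among neutrophil-like clusters Anxa1, Anxa3 and Anxa5 were each highest in Camp-high and lowest in Ccl4-high cells, so their count is no independent support. The Anxa1 ratio was 4.73 (4.31 to 5.21), the Anxa3 ratio 2.16 (1.93 to 2.43) and the Anxa5 ratio 2.33 (1.73 to 3.18). Anxa2 at 1.42 (1.29 to 1.57), Anxa11 at 1.82 (1.46 to 2.30) and Anxa7 at 1.15 (0.921 to 1.44) stayed under 2. With 1000 variable genes or Leiden clustering Anxa1 alone passed 2-fold.

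**Figure D2:**
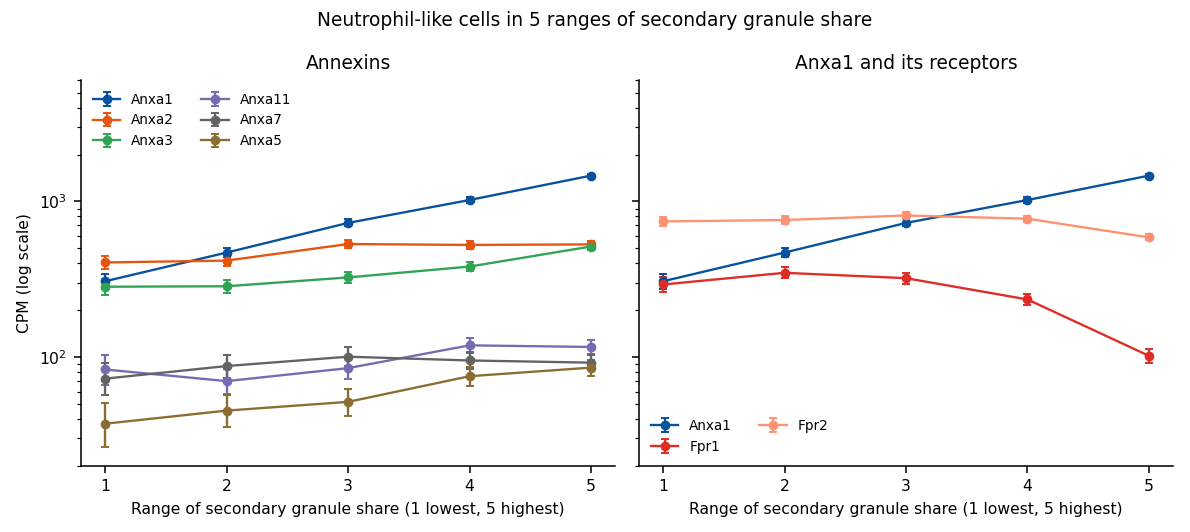
Levels (CPM, log axis; error bars, exact Poisson 95% intervals) of 6 annexins (left) and of Anxa1, Fpr1 and Fpr2 (right) in 1997 neutrophil-like cells cut into 5 equal ranges of the share of UMIs on Ltf, Camp, Ngp and Lcn2. From the lowest to the highest range Anxa1 went from 307 to 1464 CPM, and Fpr1 from 292 to 102 CPM.

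A second view did not use the borders between the 4 neutrophil-like clusters. The 1997 neutrophil-like cells were put in order of the percent of their UMIs on Ltf, Camp, Ngp and Lcn2, which encode secondary granule proteins and are made by immature neutrophils, and cut into 5 ranges of 399 or 400 cells. The score is continuous, and between 13 and 78 cells of a range lay within 10% of a limit. The ranges overlapped with the clusters: 262 of the 399 cells in the highest were Camp-high, and 230 of the 400 in the lowest were Ccl4-high. Anxa1 climbed at every step, with 307 CPM (274 to 342), 469 CPM (437 to 503), 727 CPM (690 to 766), 1021 CPM (983 to 1060) and 1464 CPM (1423 to 1505) from the lowest range to the highest. No neighboring intervals overlapped, and the highest range was 4.77 times the lowest (4.26 to 5.36). The share of all genes that climbed in this way was not computed, so the climb is not read as particular to Anxa1. Median UMIs per cell also rose across the ranges, from 2428 to 7473, and their part in the result was not tested.

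The other members changed less along this order. Anxa3 was at 283, 285, 325, 381 and 513 CPM, a ratio of 1.81 (1.60 to 2.06) between the ends. Anxa5 was at 37.3, 45.3, 51.5, 75.3 and 85.5 CPM, a ratio of 2.29 (1.64 to 3.29). Anxa2 was at 405, 416, 532, 525 and 529 CPM, and its ratio of 1.31 (1.17 to 1.46) was set by the step between the second and the third range. Anxa11 was at 83.1, 70.0, 84.8, 119 and 116 CPM, a ratio of 1.40 (1.10 to 1.78), and of 1.70 with equal weight per cell. Anxa7 had a ratio of 1.27 (0.983 to 1.65) and Anxa4 of 0.718 (0.390 to 1.38), both with intervals that held 1. Fpr1 was at 292, 348, 321, 234 and 102 CPM, highest in the second range, and its ratio between the ends was 0.348 (0.298 to 0.408). Fpr2 was at 744, 759, 812, 774 and 587 CPM, a ratio of 0.790 (0.726 to 0.859). With 3 ranges and equal weight per cell the Fpr2 ratio was 1.00, so its fall depended on the setting. The maturity genes Cxcr2 and Csf3r, which mark late neutrophils, went from 2545 to 854 CPM and from 1675 to 259 CPM.

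Anxa2 (chr9:69453620-69491795, plus strand) was the most even of the abundant members. Its protein pairs with S100A10, the product of S100a10, in a complex that binds plasminogen at the cell surface. It was at 552 CPM (524 to 582) in Retnlg-high, 522 CPM (500 to 546) in stefin-high, 502 CPM (476 to 530) in Camp-high and 353 CPM (324 to 383) in Ccl4-high cells. The first 3 could not be told apart from their neighbors, with ratios of 1.06 (0.988 to 1.13) and 1.04 (0.970 to 1.12). Camp-high over Retnlg-high, the ends of these 3, was at 0.909 (0.843 to 0.980). Stromal-like cells had the lowest level, at 262 CPM (248 to 276). The Arg1-high cluster had the highest, at 606 CPM (567 to 648), made of 878 CPM (804 to 958) in the 62 cells and 429 CPM (387 to 474) in the other 80.

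**Figure D3:**
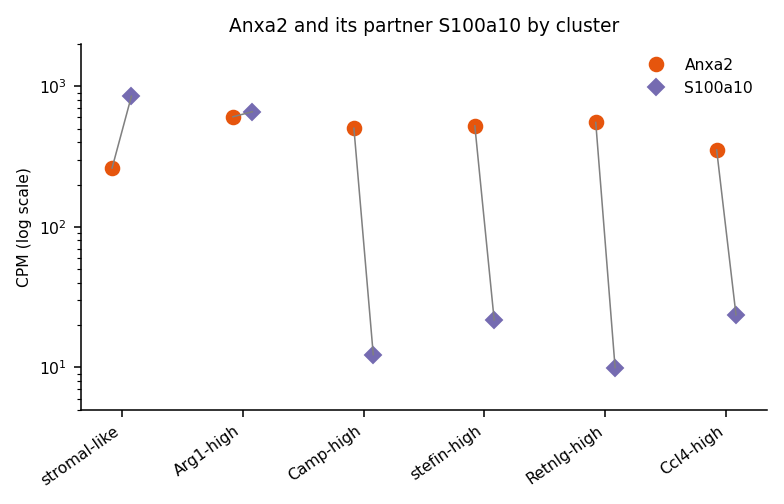
Anxa2 (circles) and S100a10 (diamonds) in the 6 clusters (CPM, log axis; a line joins the 2 genes of a cluster). S100a10 lay above Anxa2 in stromal-like cells (849 against 262 CPM) and near 10 to 24 CPM in the neutrophil-like clusters, where Anxa2 was between 353 and 552 CPM.

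S100a10 was not spread in the same way. In stromal-like cells it was at 849 CPM, or 3.24 UMIs (3.06 to 3.44) for each Anxa2 UMI, and in the Arg1-high cluster at 658 CPM, or 1.09 UMIs (0.99 to 1.19). The neutrophil-like clusters had 12.3 CPM (Camp-high), 21.8 CPM (stefin-high), 23.7 CPM (Ccl4-high) and 9.99 CPM (Retnlg-high), or 0.0181 to 0.0671 UMIs for each Anxa2 UMI. The share of free stromal RNA given by Dcn would leave 4.75 CPM of S100a10 in these cells. A 3′ library gives a molecule 1 tag whatever its length, so the comparison between genes needs no length term, but capture can still differ between genes. Neutrophil-like cells thus held Anxa2 transcripts at or above the stromal-like level with little S100a10.

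Of the other annexin partners on the list, Ahnak shared the S100a10 pattern, whereas S100a11, S100a6 and Sri were lowest in stromal-like cells. S100a11, which binds the tail of annexin A1, was between 3455 and 5114 CPM in the neutrophil-like clusters and at 318 CPM in stromal-like cells. S100a6, a partner of annexin A11, was between 7081 and 14709 CPM and at 688 CPM. S100a4 was at 510 CPM in the Arg1-high cluster and under 16 CPM elsewhere, with 15.6 CPM in Ccl4-high cells the next level. Of the 8 partners, all of which passed the filter, S100a10 and Ahnak were 2-fold or more higher in stromal-like cells than in all other cells. S100a11, S100a6, S100a4 and Sri were that much lower, beside 49.6% and 19.8% of all genes tested. S100a4, at 8.77 CPM in stromal-like cells, passed the filter through the other cells alone, so it could be counted only as lower. Its ratio of stromal-like to neutrophil-like cells was 1.21 (0.824 to 1.75). Ahnak, a large scaffold bound by the annexin A2 complex, was at 252 CPM in stromal-like cells, 456 CPM in the Arg1-high cluster and at most 17.1 CPM in the neutrophil-like clusters.

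Genes of the plasminogen system, on which that complex acts, differed between the cell groups. Plat, Plau and Serpine2 were 2-fold or more higher in stromal-like cells than in all other cells. Of the 8558 genes tested there, 49.6% were that much higher and 19.8% that much lower. Plat, which encodes tissue plasminogen activator, was at 288 CPM in stromal-like cells and at most 4.67 CPM in any other cluster. It met the 10 CPM filter through stromal-like cells alone, so it could be counted only as higher. Serpinb2, an inhibitor of urokinase, was lower in stromal-like cells, and 329 CPM of it lay in the Arg1-high cluster. At 0.365 CPM in stromal-like cells, it could be counted only as lower there. The urokinase receptor Plaur was at 328 CPM in stromal-like cells and between 469 and 727 CPM in the neutrophil-like clusters. Plg, the gene for plasminogen itself, had 0 UMIs, with the same limit of 0.170 CPM from 3 counts.

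Anxa5 (chr3:36448923-36475894, minus strand) was highest where Anxa1 was lowest, in stromal-like cells, but shared the Anxa1 order within the neutrophil-like clusters. The protein binds phosphatidylserine with high affinity and serves as a probe of dying cells. It was the leading member in stromal-like cells, at 555 CPM (535 to 575), which was 43.7% of the summed level of the 8 annexins there. In Camp-high cells, by comparison, Anxa1 made 52.6% of that sum and Anxa5 2.95%. Anxa5 was at 81.1 CPM (70.7 to 92.7) in Camp-high, 68.5 CPM (60.5 to 77.3) in stefin-high, 64.9 CPM (55.5 to 75.5) in Retnlg-high and 34.9 CPM (26.4 to 45.3) in Ccl4-high cells. The first 3 did not differ from their neighbors beyond the intervals, their ends differed at 1.25 (1.02 to 1.54) for Camp-high over Retnlg-high, and Ccl4-high was lower than Retnlg-high by a ratio of 1.86 (1.37 to 2.56). Carry-over from stromal-like cells would give 3.10 CPM. The Arg1-high cluster was at 303 CPM, from 613 CPM (551 to 680) in the 62 cells and 99.0 CPM (79.4 to 122) in the other 80.

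Anxa8, a family member outside the 8, was the most restricted. It was at 808 CPM (784 to 832) in stromal-like cells, above Anxa5, with 98.7% of its 4478 UMIs there. The other clusters were between 1.12 and 6.15 CPM, and carry-over would give 4.52 CPM. Anxa9, Anxa10 and Anxa13 had 10, 0 and 1 UMIs in the whole library, where the limit set by 3 counts is 0.170 CPM.

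Anxa4 and Anxa6 were low and leaned to the Arg1-high cluster. Anxa4 (chr6:86736840-86793584, minus strand), which binds membranes that fuse in exocytosis, was at 78.9 CPM (65.2 to 94.6) there, with 132 CPM (104 to 165) in the 62 cells and 43.9 CPM (31.2 to 59.99) in the other 80. It was at 40.2 CPM (35.1 to 45.9) in stromal-like cells and between 5.38 and 18.7 CPM in the neutrophil-like clusters, where no step between neighbors in the order excluded 1. Its ends did differ, with stefin-high over Retnlg-high at 3.47 (1.94 to 6.67). Anxa6 (chr11:54979108-55033445, minus strand), which carries a duplicated annexin core, was at 24.5 CPM (17.1 to 33.9) in the Arg1-high cluster and 10.6 CPM (8.05 to 13.7) in stromal-like cells. The 62 cells had 43.0 CPM (27.8 to 63.4) and the other 80 had 12.4 CPM (6.18 to 22.1). It had 4 UMIs in Camp-high cells, 3 in stefin-high cells and 0 in Retnlg-high and Ccl4-high cells, where the limit set by 3 counts is 1.15 and 1.87 CPM. In the Arg1-high cluster, Anxa4 and Anxa6 were 2-fold or more higher than in all other cells and Anxa11 was that much lower. The background over 8136 genes was 21.6% higher and 12.5% lower. Anxa6 met the 10 CPM filter through the Arg1-high cluster alone (24.5 against 4.01 CPM in all other cells), so it could be counted only as higher. With the 62 cells in place of the 142, and set against the cells outside the cluster, 4 members passed as higher (Anxa2, Anxa4, Anxa5 and Anxa6) and 2 as lower (Anxa3 and Anxa11), beside 20.7% and 15.5% of 7956 genes.

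Anxa7 and Anxa11 were at intermediate levels. Anxa7 (chr14:20455260-20480133, minus strand), first known for aggregating secretory granules, was at 164 CPM (154 to 176) in stromal-like cells. The other 5 clusters lay between 74.1 and 99.1 CPM, and none of them differed from its neighbor in the order beyond the interval. Farther apart, Retnlg-high over Ccl4-high was at 1.30 (1.05 to 1.63) and stefin-high over Ccl4-high at 1.27 (1.03 to 1.57). Anxa11 (chr14:25842156-25886804, plus strand), which binds RNA granules and the calcium sensor encoded by Pdcd6, was at 127 CPM (113 to 141) in Retnlg-high and 119 CPM (107 to 133) in Camp-high cells. It was at 84.9 CPM in stefin-high, 65.4 CPM in Ccl4-high and 60.3 CPM in stromal-like cells. The Arg1-high cluster had the lowest level, at 35.4 CPM (26.4 to 46.4). The antisense gene Anxa11os had 13 UMIs in all.

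Over 12 groups, the 6 clusters in each condition, the members fell into sets with like patterns on the log2(CPM + 10) scale. These correlations share library and depth and are given as descriptions. Anxa4 and Anxa6 had an r of 0.90, Anxa1 and Anxa3 of 0.87, Anxa1 and Anxa2 of 0.85, and Anxa5 and Anxa6 of 0.83. In contrast, Anxa3 and Anxa5 had an r of -0.76 and Anxa4 and Anxa11 of -0.94. Among 2828 genes at 100 CPM or more in some group, Cdkn2d, Hopx and Pglyrp1 were the most like Anxa1, with r of 0.98, 0.98 and 0.97. Pglyrp1 encodes a peptidoglycan recognition protein of neutrophil granules. Anxa3 was most like AB124611, Mmp25 and Cnn2 (r of 0.99, 0.98 and 0.98), and Mmp25 encodes a metalloproteinase of neutrophil membranes. Anxa5 was most like Cisd1, Sec23b and Chordc1 (0.98 each), Anxa2 like Ifitm1, Sem1 and Fis1 (0.94, 0.91 and 0.91), and Anxa11 like Crispld2, Ckap4 and Tinagl1 (0.94, 0.84 and 0.83). For Anxa7 the genes were 4930523C07Rik, Gdf15 and Wwtr1 (0.91, 0.90 and 0.89), and Anxa4 and Anxa6 stayed under 100 CPM in every group.

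**Figure D4:**
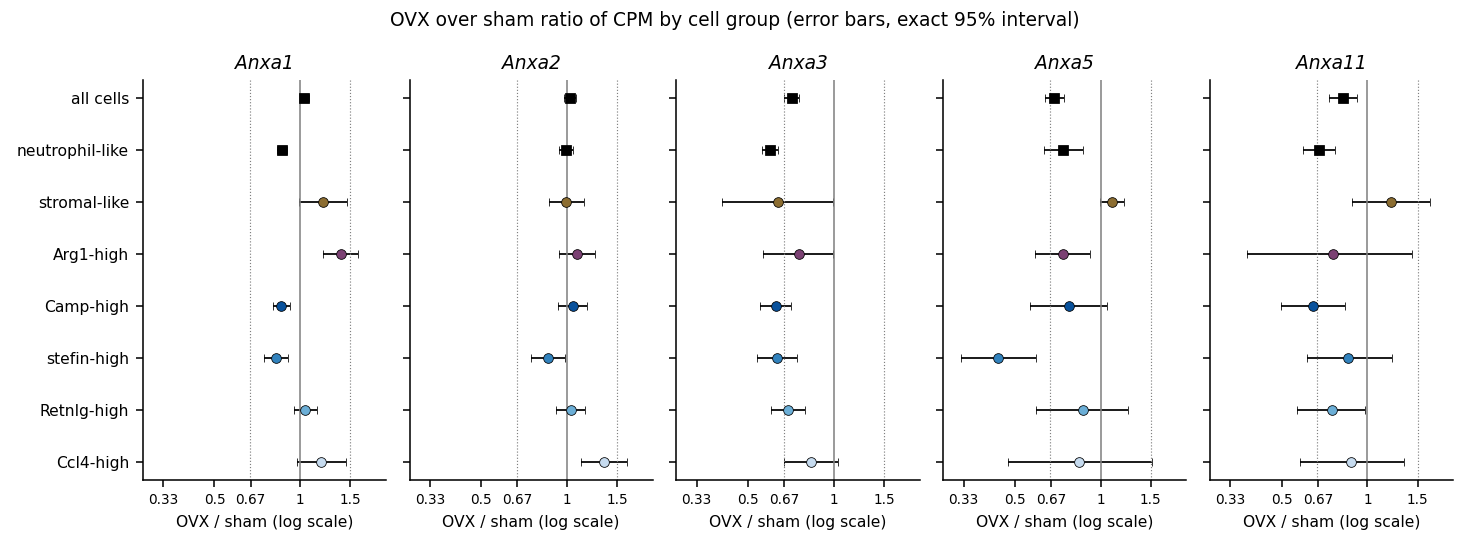
Ratio of OVX to sham CPM (log axis) for 5 annexins over all cells, over neutrophil-like cells (squares) and within each cluster (circles), with exact 95% intervals for counting error; the solid line is 1 and the dotted lines are 1.5-fold. The Anxa3 point lay below 1 in each of the 6 clusters, and the Anxa5 point over all cells (0.687) lay below 1 while that in stromal-like cells (1.10) did not.

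The comparison of OVX with sham asks how loss of ovarian hormones changes these cells. Over all cells, Anxa1 was at 755.8 CPM in OVX against 731 CPM in sham, a ratio of 1.03 (0.995 to 1.07). Anxa2 was at 469 and 457 CPM, a ratio of 1.03 (0.978 to 1.08). Anxa7 was at 102 and 107 CPM (0.951, 0.858 to 1.05). These 3 intervals held 1. Anxa3 was at 244 and 343 CPM (0.711, 0.668 to 0.756), Anxa5 at 158 and 230 CPM (0.687, 0.637 to 0.742) and Anxa11 at 76.2 and 92.8 CPM (0.820, 0.731 to 0.920). Of the 7 members at 10 CPM or more in either condition, 0 passed 1.5-fold in either direction. Of the 7170 genes at that level, 4.71% were 1.5-fold or more higher and 21.9% that much lower, and the median gene stood at -0.23 on the log2 scale, and relative to it Anxa3 and Anxa5 stood at -0.27 and -0.32 on that scale. Anxa6, under the filter, had 27 UMIs in OVX and 45 in sham (0.497, 0.297 to 0.819).

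The cell groups contributed unequally to the 2 conditions. Stromal-like and Arg1-high cells held 16.6% and 5.94% of the OVX UMIs, against 24.8% and 14.4% of the sham UMIs. Stefin-high cells held 42.1% of the OVX UMIs and 6.42% of the sham UMIs. With each cluster given its mean UMI share over both conditions, the Anxa5 ratio over all cells moved from 0.687 to 0.893, and 72.5% of all Anxa5 UMIs lay in stromal-like cells. Within those cells Anxa5 was at 600 CPM in OVX against 547 CPM in sham, a ratio of 1.10 (0.995 to 1.21) from 38 and 54 cells. The Anxa3 ratio, in contrast, moved down to 0.667, just inside the 1.5-fold limit, so 0 of 7 members passed in either direction. The background at equal shares was 4.91% higher and 4.04% lower over 7027 genes.

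By summed UMIs, Anxa3 was lower in OVX in each of the 6 clusters. It was at 363 CPM in OVX against 582 CPM in sham among Camp-high cells (0.625, 0.551 to 0.708), 287 and 455 CPM among stefin-high cells (0.631, 0.539 to 0.741), and 366 and 530 CPM among Retnlg-high cells (0.691, 0.600 to 0.794). In Ccl4-high cells it was at 212 and 256 CPM (0.831, 0.67 to 1.03), where the interval held 1. It had 32 and 62 UMIs in stromal-like cells (0.639, 0.404 to 0.995) and 72 and 192 UMIs in the Arg1-high cluster (0.752, 0.565 to 0.991). Of the genes tested, 4.67% were lower in OVX in all 6 clusters and 3.15% were higher in all 6. Among members, Anxa3 was lower and Anxa4 was higher in all 6. With equal weight per cell both turned in the Arg1-high cluster, where Anxa3 was at 129.5 CPM in OVX against 111.4 CPM in sham and Anxa4 at 88.3 against 90.4 CPM. In the 5 ranges of secondary granule share the Anxa3 ratio was 0.729, 0.650, 0.576, 0.576 and 0.657 from the lowest to the highest, and each interval excluded 1. These ranges regroup the same neutrophil-like cells, so they are no second check. The share of all genes that were lower in this way was not computed. A single cell held up to 18.8% of the OVX and 12.9% of the sham Anxa3 UMIs in stromal-like cells. In the Arg1-high cluster these shares were 16.7% and 14.1%.

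Among the 974 OVX and 854 sham neutrophil-like cells together, Anxa3 was at 297 CPM in OVX against 499 CPM in sham (0.596, 0.558 to 0.635) and passed 1.5-fold lower. Anxa4 passed 1.5-fold higher, at 16.7 and 6.87 CPM (2.43, 1.58 to 3.87), from 101 and 27 UMIs. Anxa4 met the 10 CPM filter through OVX alone, so it could be counted only as higher. The background over 5535 genes was 7.44% higher and 7.39% lower. Anxa4 rested on few molecules: within clusters its ratio ran from 1.15 to 3.18, and Camp-high, with 15 and 6 UMIs (1.17 to 9.997), was the sole cluster whose interval excluded 1. With the 4 clusters at equal shares the Anxa4 ratio was 1.502. Anxa11 was at 82.1 and 121 CPM (0.676, 0.595 to 0.769), lower by less than 1.5-fold, and Anxa1 was at 886 and 1026 CPM (0.864, 0.829 to 0.90). Anxa2, at 498 and 501 CPM (0.995, 0.94 to 1.05), had an interval that held 1. Anxa5 was at 56.9 and 77.1 CPM (0.739, 0.631 to 0.865). With the 4 clusters at equal shares the Anxa5 ratio was 0.628 and the Anxa3 ratio 0.663, both past 1.5-fold lower, and the Anxa11 ratio was 0.759. The share of all genes past 1.5-fold was not computed at these equal shares, so the ratios there have no background beside them. The lowest Anxa5 ratio within a cluster was 0.436 (0.324 to 0.595) in stefin-high cells, at 60.9 and 140 CPM from 200 and 58 UMIs. The sham stefin-high cells had a median depth of 1914.5 UMIs against 5910 in OVX, and the part of that gap in the result was not tested.

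The annexin A1 receptors differed by cluster. Among neutrophil-like cells Fpr1 was at 278 CPM in OVX against 177 CPM in sham (1.57, 1.44 to 1.72), and Fpr2 at 774 and 646 CPM (1.199, 1.14 to 1.26). Ccl4-high cells had the largest Fpr1 ratio of the 4 neutrophil-like clusters, at 2.07 (1.69 to 2.56), and a Fpr2 ratio of 1.85 (1.61 to 2.12). In stefin-high cells Fpr2 was at 825 and 939 CPM (0.878, 0.790 to 0.979), below 1, and in Camp-high cells its ratio was 0.909 (0.809 to 1.02). S100a10 over all cells was at 199 and 305 CPM (0.654, 0.611 to 0.699), but at 899 and 777 CPM within stromal-like cells (1.16, 1.07 to 1.25). S100a6 was at 13542 and 10207 CPM in neutrophil-like cells, a ratio of 1.33 (1.31 to 1.34).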

How the data were processed

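The authors aligned the reads to mm10 with Cell Ranger (6.0.1 per the labels, 6.0.0 per the file header) and deposited UMI counts per gene and hashtag for the barcodes called as cells, without normalization. Depth ran from 500 to 141565 gene UMIs per cell. Cells were assigned to hashtags (1 = OVX, 2 = sham) by HTODemux at a positive quantile of 0.99, in Seurat 5.3.0 under R 4.3.3. Barcodes above the limit for both or neither hashtag were left out of OVX against sham. The labels give 1037 OVX and 1084 sham cells loaded. Clusters were made in scanpy 1.11.5 from counts scaled to 10000 per cell and log-transformed, with 2000 variable genes less every gene starting with Anxa (no member was among them, Anxa8 was), 30 principal components, 15 neighbors and Louvain (igraph 0.11.9), at the lowest resolution tried (0.32) with 6 clusters, each of 10 cells or more. Camp-high is the cluster with most Mki67 and Top2a once the stromal-like and Arg1-high clusters had been matched, and Retnlg-high is the last cluster left after matching. No doublet caller was run, so doublets within a condition remain.

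Levels are summed UMIs per 1000000 UMIs (CPM) with exact Poisson intervals. Ratios have exact conditional intervals and shares of cells exact Clopper-Pearson intervals. A gene was counted as past a fold at 10 CPM or more in either group, with 2-fold between clusters and 1.5-fold between conditions. A gene that met this limit in a single group could be counted only as higher in that group. With 1 pool per condition no test was run. Genes named beside an annexin are the 3 with the highest Pearson r over 12 groups, for annexins at 100 CPM or more. The others are the members, fixed lists and markers. Interval code was tested on simulated data. Coordinates are from GENCODE vM21 (GRCm38). Hashtag counts came with the deposited gene table, and the separate hashtag library was not analysed here. The members and lists were chosen with earlier results of these data known. The comparison of Camp-high with Ccl4-high, the motifs and the 2 sets of Arg1-high cells were chosen after seeing the data. One gene of the plasminogen list is not reported here.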

Additional observations from a re-analysis of the deposited data

Results flagged for a closer look

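For Anxa1 the OVX to sham ratio lay on opposite sides of 1 in different clusters, with counting intervals that excluded 1. It was 1.39 (1.2 to 1.60) in the Arg1-high cluster, from 325 and 470 UMIs, against 0.859 (0.802 to 0.921) in Camp-high cells and 0.823 (0.746 to 0.909) in stefin-high cells. A single cell held 17.8% of the OVX Anxa1 UMIs of the Arg1-high cluster and another held 10.9% of the sham UMIs. The Arg1-high cluster also mixes the 62 cells, at 436 CPM of Anxa1, with the other 80, at 653 CPM. The part of that mix in its ratio was not tested. The difference between the clusters was not tested, since each condition was 1 pool.

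For Anxa2 the ratio was 1.34 (1.12 to 1.62) in Ccl4-high cells, from 388 and 166 UMIs, and 0.857 (0.749 to 0.984) in stefin-high cells, from 1667 and 246 UMIs. In the lowest range of secondary granule share it was 1.30 (1.06 to 1.60), and in the second highest 0.847 (0.755 to 0.95). This difference was not tested either.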

How the results depend on the processing

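In all, 63 of 78 recomputed counts, of members or of clusters, stayed within 1.5 times the reported count. Of the 294 recomputed values of single members, 207 stayed within the counting interval of the main value and 87 moved outside it. A change of sign was counted only for ratios already past their fold, and 0 were found. Most of the 294 values could not be counted in that way. For OVX over sham over all cells (0 higher, 0 lower), the rule of 80% of the hashtag UMIs gave 1 lower, equal weight per cell 1 higher and 2 lower, neutrophil-like clusters alone 1 higher and 1 lower, and no filter on low values 1 lower. With the ratios scaled to their median of 0.855, Anxa7 moved from -0.07 to 0.15 on the log2 scale. For the Arg1-high cluster (2 higher, 1 lower), keeping annexins among the variable genes gave 4 higher and 2 lower, as did the 62 cells alone (added after seeing the data). There were 2 lower with 1000 variable genes, 30 neighbors or equal weight per cell. For Camp-high over Ccl4-high (3 higher), 1000 variable genes and Leiden each gave 1. The causes were not tested. Anxa3 was lower in OVX in 5 or 6 of 6 clusters in the 4 other clusterings and Anxa4 higher in 4 to 6 (added after seeing the data). No paired analysis was possible because each condition was 1 pool. Members under about 20 CPM, such as Anxa4 in neutrophil-like cells and Anxa6, rest on few UMIs and have wide intervals.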

Other observations

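Genes for the exposure and recognition of phosphatidylserine, the lipid that annexin A5 binds, differed in where they were highest. Of 14 genes on the list, 9 reached 10 CPM in stromal-like cells or in all other cells, and Ano6, Mfge8, Gas6, Pros1, Mertk and Axl were 2-fold or more higher in stromal-like cells, against a background of 49.6% of genes. Tmem30a, a subunit of lipid flippases, was between 149 and 221 CPM in every cluster, and Stab1, a receptor for phosphatidylserine, was highest in the Arg1-high cluster at 32.6 CPM. Mfge8, a bridge between phosphatidylserine and phagocytes, was at 168 CPM in stromal-like cells and at most 8.16 CPM elsewhere. Ano6, a calcium-activated scramblase, was at 184 CPM in stromal-like cells and at most 34.7 CPM elsewhere. Axl and Mertk, receptors for the bridging proteins Gas6 and Pros1, were at 27.95 and 12.6 CPM in stromal-like cells. Plscr1, a phospholipid scramblase, was the sole gene of the list that was 2-fold or more lower in stromal-like cells. It was at 64.7 CPM in Camp-high and 5.12 CPM in stromal-like cells.

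Of 9 membrane repair genes, 8 reached 10 CPM in that comparison. Dysf and Myof, which encode ferlins that act with annexins at torn membranes, were 2-fold or more higher in stromal-like cells, and Capn1 was that much lower, beside 49.6% and 19.8% of all genes tested. Dysf was at 21.0 CPM in stromal-like cells and had at most 1 UMI in any other cluster. Myof was at 40.7 CPM there, at 79.6 CPM in the Arg1-high cluster and at most 0.779 CPM in the neutrophil-like clusters. Capn1, a calcium-dependent protease, was at 8.59 CPM in stromal-like cells and between 77.9 and 134 CPM in the neutrophil-like clusters.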
